A study of Rattus norvegicus with 18 samples.

Results

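A set of 8 genes that mark the projection neurons of the striatum was followed across 18 hypothalamic arrays: Drd1, Drd2, Adora2a, Ppp1r1b, Rgs9, Gpr6, Pde10a and Rarb. They were chosen by name, with earlier results of the same arrays known, so their levels, their differences between groups and their co-variation are given below as descriptions, with no test. All probes whose transcript accession belongs to these 8 genes were taken, which gave 10 probes among the 45598 on the array, where 16665 genes were named. The samples were hypothalami of male Wistar rats, 5 weeks old at the start and 9 weeks old in the labels, with 1 array per rat and 6 rats in each of 3 groups. Rats of the stress with exercise group were restrained for 1 to 1.5 h on 5 days a week for 3 weeks and could run in a wheel for 4 weeks, of which 1 week came before the restraint. Rats of the stress group were restrained in the same way and had no wheel. Control rats had neither. The stress with exercise rats were compared with the stress rats to ask what running added under restraint, and both groups were compared with the controls.

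Projection neurons make up most of the striatum and release GABA. In the classical scheme those of the direct pathway carry the D1 dopamine receptor, which raises cAMP, and those of the indirect pathway carry the D2 receptor, which lowers it, together with the adenosine receptor encoded by Adora2a, which raises it. Both kinds contain the cAMP-regulated phosphatase inhibitor DARPP-32 and the cAMP-degrading enzyme PDE10A. The hypothalamus is not striatum, but it holds dopamine neurons and dopamine receptors of its own, and the striatum and basal forebrain lie beside it in the brain. In RNA from a whole block of tissue, fewer cells of a type and less RNA per cell cannot be told apart.

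The members fall into 3 roles. Receptors are Drd1 (the D1 receptor), Drd2 (the D2 receptor), Adora2a (an adenosine receptor) and Gpr6, an orphan receptor that raises cAMP. Intracellular signalling genes are Ppp1r1b, which encodes DARPP-32, Rgs9, whose protein speeds the shut-off of G proteins, and Pde10a. Rarb encodes a retinoic acid receptor, a transcription factor that is turned on by its ligand.

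Promoter windows are shown for the 4 members with the highest mean correlation with the others, as described further below, among the members that RefSeq's promoter table held (6 of 8 genes, build GRCr8). Each runs from 250 bases before to 50 bases after the start of the gene, 5′ to 3′ on the strand of the gene, and capitals mark GGGCGG or its reverse complement, the motif known as a GC box. They were also searched on both strands for TGACGTCA and TGACG, the full and partial cAMP response element, of which the second lies within the first, and for AGGTCA, a nuclear receptor half-site. The windows lie at chr17:10546354-10546653 (Drd1, plus strand), chr8:58605153-58605452 (Drd2, plus strand), chr10:94770338-94770637 (Rgs9, minus strand) and chr15:11336142-11336441 (Rarb, plus strand).
Drd1: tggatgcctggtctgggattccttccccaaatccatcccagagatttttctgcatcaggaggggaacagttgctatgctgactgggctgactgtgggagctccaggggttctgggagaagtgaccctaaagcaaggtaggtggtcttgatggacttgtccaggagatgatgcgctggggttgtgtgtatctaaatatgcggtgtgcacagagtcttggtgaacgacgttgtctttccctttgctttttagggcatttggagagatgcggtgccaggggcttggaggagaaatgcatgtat
Drd2: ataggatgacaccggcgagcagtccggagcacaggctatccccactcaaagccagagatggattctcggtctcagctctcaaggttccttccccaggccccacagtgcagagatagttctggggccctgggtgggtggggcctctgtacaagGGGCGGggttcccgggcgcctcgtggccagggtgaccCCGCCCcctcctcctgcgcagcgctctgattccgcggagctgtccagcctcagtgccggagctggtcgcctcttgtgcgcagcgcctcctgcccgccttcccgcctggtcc
Rgs9: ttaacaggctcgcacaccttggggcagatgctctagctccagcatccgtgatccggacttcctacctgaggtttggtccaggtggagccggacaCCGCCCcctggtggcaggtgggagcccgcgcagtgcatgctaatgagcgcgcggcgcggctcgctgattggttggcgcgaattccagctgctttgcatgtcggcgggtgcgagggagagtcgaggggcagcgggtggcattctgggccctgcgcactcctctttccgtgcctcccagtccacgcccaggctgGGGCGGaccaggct
Rarb: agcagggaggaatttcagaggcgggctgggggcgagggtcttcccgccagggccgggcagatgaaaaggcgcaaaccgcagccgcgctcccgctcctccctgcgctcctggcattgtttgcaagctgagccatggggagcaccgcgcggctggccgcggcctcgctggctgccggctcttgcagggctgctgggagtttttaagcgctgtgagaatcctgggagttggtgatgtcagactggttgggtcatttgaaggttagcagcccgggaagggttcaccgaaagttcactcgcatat
The windows of Drd2 and Rgs9 each held 2 GGGCGG matches, and those of Drd1 and Rarb held no exact match of any of the motifs. Variants of these motifs were not searched for. Among 33469 promoter windows of the same length, 33.1% held GGGCGG, 21.2% held TGACG, 16.2% held AGGTCA and 1.83% held TGACGTCA. Among windows not shown, that of Gpr6 held 1 TGACGTCA match. For Pde10a, 1 window held 2 TGACG matches and 1 GGGCGG match, and another held 2 GGGCGG matches. GC content was 51.7% in the Drd1 window, equal to the median over all windows (51.7%), and 67.3%, 66.3% and 63.0% in those of Drd2, Rgs9 and Rarb.

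The arrays did not vary by group alone. They lay on 5 slides. All stress with exercise arrays were on slides 4 and 5 together with stress arrays 5 and 6, whereas stress arrays 1 to 4 and the 6 controls were on slides 1 to 3. Principal component 1, with 32.15% of the variance, separated the slide sets, with scores of -40.66 to -24.85 on slides 4 and 5 and of 20.98 to 33.74 on slides 1 to 3. No slide held arrays of both stress with exercise and control, or of both stress and control. Differences of the members are therefore given from the fit with group as the only term and from a fit that also holds the slide set (slides 4 and 5 against slides 1 to 3). The slide-set difference of stress with exercise against stress equals the difference within slides 4 and 5, and that of stress against control equals the difference within slides 1 to 3. Of 19 hypothalamic neuron markers on the array, 18 were tested. Marker lists of nearby tissue passed alike, with 11 of 12 thalamic and 8 of 8 septal and pallidal markers tested. The count therefore cannot tell hypothalamus from its neighbours. Oxytocin, Oxt, averaged 3.36 ± 0.22 in stress rats and 3.00 ± 0.06 in controls (level, SD, n = 6). On each array, 63.6% to 77.7% of probes exceeded background clearly by the scanner's own flag (called well above background here).

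A level is log2 of the processed intensity relative to the 75th percentile of the array, so 0 is that percentile, and levels of different probes are not comparable. Of the 8 genes, 7 had a probe well above background on all 18 arrays. The exception was Gpr6, whose probe passed on none of the 18, with a median intensity of 3.82 and a range of 2.14 to 9.82. Its median level was -9.09 in stress with exercise, -8.70 in stress and -9.29 in control, and no fold is given for it. For Drd1 and Rarb the array holds a second, dimmer probe, described after the main probes.

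Drd1 lay between -2.07 and -0.88 in stress with exercise (median -1.53), between -2.01 and -1.18 in stress (median -1.73) and between -2.06 and -1.58 in control (median -1.92). The stress with exercise arrays split into a high set, with arrays 1, 3 and 4 at -0.88, -1.05 and -1.17, and a low set, with arrays 2, 5 and 6 at -1.89, -2.07 and -1.91. All 3 high arrays lay above every control array, 2 of the 3 low ones lay within the control range and array 5 just below it, and the stress group held 1 array as high, array 1 at -1.18. The mean was -1.50 ± 0.52 in stress with exercise, -1.66 ± 0.32 in stress and -1.89 ± 0.18 in control (SD, n = 6 each). Stress with exercise minus stress was 0.16 ± 0.20 (SE), stress with exercise minus control 0.39 ± 0.20, and stress minus control 0.23 ± 0.20. The SD of the stress with exercise arrays was thus larger than any of these differences, and the slide-set values were close to them, at 0.17, 0.40 and 0.23.

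Adora2a, the other cAMP-raising receptor, showed the same split of arrays. Arrays 1, 3 and 4 of stress with exercise stood at -3.42, -3.64 and -3.58, while arrays 2, 5 and 6 stood at -4.49, -4.81 and -4.38. Stress arrays ran from -4.68 to -3.79 (median -4.47), again with array 1 highest. Control arrays ran from -5.00 to -4.51 (median -4.66), and the groups overlapped. Adora2a averaged -4.05 ± 0.57 in stress with exercise, -4.38 ± 0.32 in stress and -4.71 ± 0.17 in control (SD, n = 6 each). Stress with exercise minus control was 0.65 ± 0.22 (SE), a 1.57-fold difference, and 0.63 ± 0.40 with the slide set in the fit. Of the 2 smaller steps, stress with exercise minus stress was 0.33 ± 0.22 and stress minus control 0.33 ± 0.22, each within the SD of the stress with exercise arrays, and they were 0.31 ± 0.31 and 0.32 ± 0.25 with the slide set.

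Drd2, the receptor of the indirect pathway, was ordered differently among the arrays. It lay between -0.33 and 0.27 in stress with exercise (median 0.09), between -0.43 and -0.03 in stress (median -0.24) and between -0.53 and -0.12 in control (median -0.38). Stress with exercise arrays 1 and 5 were highest, both at 0.27, and array 5 was the lowest of its group for Drd1 and Adora2a. Array 2 of that group, at -0.33, was the exception among arrays that otherwise all exceeded the highest stress array. The mean was 0.06 ± 0.22 in stress with exercise, -0.24 ± 0.15 in stress and -0.36 ± 0.14 in control (SD, n = 6 each). The difference of stress with exercise minus stress was 0.30 ± 0.10 (SE) and stress with exercise minus control 0.42 ± 0.10, which became 0.14 ± 0.13 and 0.18 ± 0.17 with the slide set in the fit. Stress minus control was 0.12 ± 0.10, and 0.04 ± 0.10 with the slide set. Within the stress group the slide 4 arrays, 5 and 6, were also the highest, at -0.03 and -0.12.

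Ppp1r1b, the DARPP-32 gene, ran from -0.73 to -0.06 in stress with exercise (median -0.50), from -0.79 to -0.31 in stress (median -0.55) and from -0.90 to -0.68 in control (median -0.77). Stress with exercise arrays 1, 3 and 4 (-0.06, -0.20 and -0.38) and stress array 1 (-0.31) were the 4 highest of the 18 arrays, as they were for Drd1 and Adora2a. The groups overlapped, with stress with exercise array 6 at -0.73. Means were -0.44 ± 0.27 in stress with exercise, -0.56 ± 0.18 in stress and -0.78 ± 0.08 in control (SD, n = 6 each). Stress with exercise minus stress was 0.12 ± 0.11 (SE) and 0.22 ± 0.15 with the slide set. For stress with exercise minus control these were 0.34 ± 0.11 and 0.49 ± 0.20, and for stress minus control 0.22 ± 0.11 and 0.27 ± 0.12. Ppp1r1b thus differed more from control with the slide set in the fit, where Drd2 differed less.

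Rgs9 lay between -1.35 and -0.79 in stress with exercise (median -0.94), between -1.37 and -1.02 in stress (median -1.08) and between -1.50 and -1.14 in control (median -1.31). Among stress with exercise arrays, 5 of 6 were above every stress and every control array, and array 2 (-1.35) was below the control mean. Rgs9 averaged -0.97 ± 0.21 in stress with exercise, -1.12 ± 0.13 in stress and -1.32 ± 0.12 in control (SD, n = 6 each). Stress with exercise minus stress was 0.15 ± 0.09 (SE), stress with exercise minus control 0.35 ± 0.09 and stress minus control 0.20 ± 0.09. The slide-set values were 0.08, 0.25 and 0.16.

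Pde10a, the phosphodiesterase that degrades cAMP and cGMP in these neurons, was the only member whose stress with exercise arrays all lay above all stress and all control arrays. It ran from -0.96 to -0.60 in stress with exercise (median -0.78), from -1.47 to -0.96 in stress (median -1.13) and from -1.27 to -1.02 in control (median -1.24). The gap was narrow against stress, where array 5 of stress with exercise and array 5 of stress both stood at -0.96. Its mean was -0.78 ± 0.15 in stress with exercise, -1.17 ± 0.20 in stress and -1.21 ± 0.09 in control (SD, n = 6 each). Stress with exercise minus stress was 0.39 ± 0.09 (SE, 1.31-fold) and stress with exercise minus control 0.43 ± 0.09 (1.35-fold), against 0.03 ± 0.09 for stress minus control. In the slide-set fit these were 0.31 ± 0.12, 0.29 ± 0.15 and -0.01 ± 0.10. The arrays that were highest for Drd1 were not set apart here, since array 6 of stress with exercise was highest.

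Rarb, the retinoic acid receptor gene, lay between -2.02 and -1.43 in stress with exercise (median -1.68), between -1.88 and -1.58 in stress (median -1.70) and between -1.97 and -1.68 in control (median -1.74). Stress with exercise arrays 1, 3 and 4 were again the 3 highest of all arrays, at -1.43, -1.50 and -1.57, and array 2 was the lowest of all. Means were -1.68 ± 0.22 in stress with exercise, -1.73 ± 0.11 in stress and -1.80 ± 0.12 in control (SD, n = 6 each). The differences were 0.05 ± 0.09 for stress with exercise minus stress, 0.11 ± 0.09 for stress with exercise minus control and 0.07 ± 0.09 for stress minus control, all smaller than the spread within groups. They were 0.18 ± 0.12, 0.31 ± 0.16 and 0.13 ± 0.10 with the slide set.

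**Figure D1:**
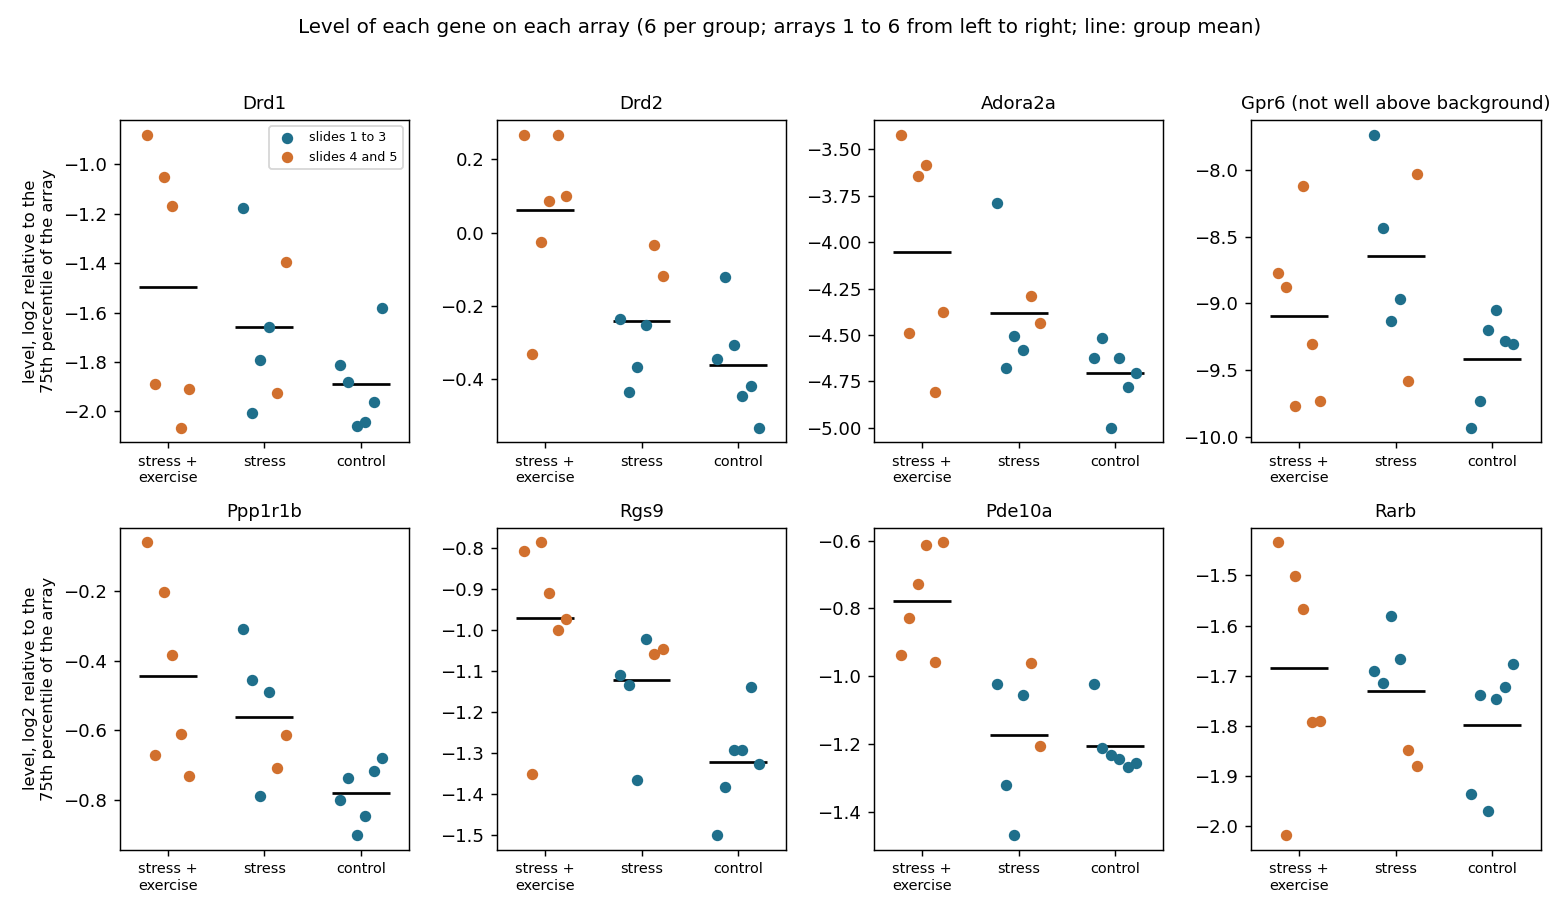
Level of the 8 genes on each array (vertical axes, log2 relative to the 75th percentile of the array; scales differ between panels) in stress with exercise, stress and control rats, with points coloured by slide set and a line at each group mean. For Drd1, Adora2a and Ppp1r1b, 3 stress with exercise arrays and 1 stress array stand above the others, while for Pde10a all 6 stress with exercise arrays lie above the arrays of the other groups.

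The second Drd1 probe was well above background on 14 of 18 arrays (6 in stress with exercise, 3 in stress and 5 in control) with a median intensity of 14.9. Its level averaged -6.77 ± 0.51 in stress with exercise, -7.61 ± 0.95 in stress and -7.24 ± 0.65 in control (SD, n = 6 each). On this probe, stress with exercise minus stress was 0.84 ± 0.40 (SE), and stress minus control was -0.37 ± 0.40, opposite in sign to the brighter probe. Within stress with exercise it showed the same split, with arrays 1, 3 and 4 at -6.25, -6.23 and -6.44 and arrays 2, 5 and 6 at -7.30, -7.13 and -7.25. The second Rarb probe was well above background on 6 of 18 arrays (4, 1 and 1) and was not tested.

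Mean levels had the same order for all 7 measurable genes, with stress with exercise highest, stress next and control lowest. Stress with exercise and stress differed by more than the larger SD of the pair only for Drd2 and Pde10a, and stress and control did so only for Adora2a, Ppp1r1b and Rgs9. For Drd1 and Rarb neither neighbouring pair did. The median difference over the 7 genes was 0.16 for stress with exercise minus stress, 0.39 for stress with exercise minus control and 0.20 for stress minus control, beside 0.03, 0.03 and 0.00 over all 13051 tested genes. With the slide set the members' medians were 0.18, 0.31 and 0.16. The comparisons share arrays, since both differences of stress with exercise use the same 6 rats, and the 2 differences from control use the same 6 controls.

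Calls are given as counts beside the background and support nothing, because the genes were chosen with these differences known. In stress with exercise against stress, 1 of the 7 genes (Pde10a) was called higher at an adjusted p under 0.05 in limma and 0 lower, where 1.62% of all tested genes were called higher and 1.76% lower. Pde10a was also the 1 member without overlap of the groups, and 0.965% of all genes were without overlap and higher. In stress with exercise against control, 5 were called higher (Drd2, Adora2a, Ppp1r1b, Rgs9 and Pde10a) and 0 lower, where 15.3% of all genes were called higher and 11.2% lower. Pde10a was again the 1 member without overlap, and 9.32% of all genes were without overlap and higher. In stress against control 0 members were called, where 0.0% of genes were called in either direction by limma (0 probes, with 3696 of 31293 at an unadjusted p under 0.05). No member was without overlap there, while 0.544% of all genes were without overlap and higher. Genes without overlap and lower were not counted in these shares. With the slide set as a covariate, 0 members were called in any comparison. Of all 31293 probes that fit called 5 in stress with exercise against stress, 7 against control and 1 in stress against control.

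The calls changed when arrays were left out. Without any 1 of stress with exercise arrays 1, 3 or 4, or of control array 3, the members called against control were Drd2, Pde10a and Rgs9, 3 in place of 5. Calls over all probes fell as well, to between 6979 and 7342 against control in these fits, from 8153 with all arrays. In stress with exercise against stress, Pde10a was called in 5 of the 18 fits that left out 1 array (without stress array 5 or 6, or without control array 2, 3 or 5), and not in the other 13. Those 5 fits called 278 to 4633 of all 31293 probes, and the other 13 called 1 to 75, beside 1166 with all arrays. The difference of Pde10a stayed between 0.335 and 0.437 in these 18 fits. Without stress array 5 or 6, the arrays of that group on slide 4, Drd2 was called too.

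**Figure D2:**
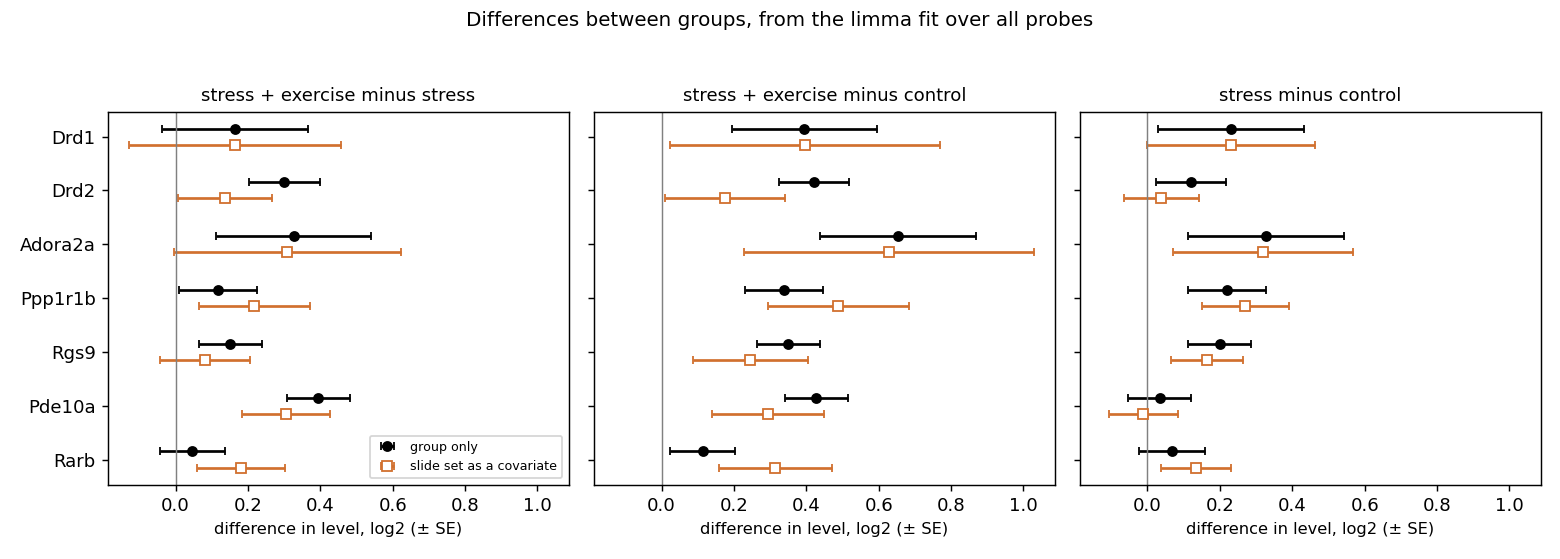
Difference in level (horizontal axes, log2, ± SE of the limma fit) of the 7 measurable genes in each comparison, from the fit with group only (filled circles) and from the fit that adds the slide set (open squares). Against control, adding the slide set gave lower values for Drd2 (0.18 in place of 0.42), Rgs9 and Pde10a, higher values for Ppp1r1b and Rarb, and nearly the same for Drd1 and Adora2a.

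The genes were then set against each other on deviations from the group means, so that differences between groups do not enter. Over the 18 arrays the median Pearson r of the 21 pairs among 7 genes was 0.41 (range -0.22 to 0.88), and 20 pairs were above 0. The median Spearman rho was 0.35. Drd1 and Adora2a had the highest r, 0.88, although the classical scheme puts them in different projection neurons, followed by Drd1 and Ppp1r1b at 0.81 and Adora2a and Ppp1r1b at 0.74. Rarb joined this set, with r of 0.69 with Ppp1r1b, 0.62 with Adora2a and 0.62 with Drd1. Drd1 and Drd2 had an r of 0.15, and Drd2 and Adora2a, which share a pathway, 0.22. These points share their arrays, dissections and slides.

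Pde10a and Drd2 stood apart from the others. The mean r with the other 6 genes was 0.53 for Adora2a, 0.51 for Drd1, 0.50 for Ppp1r1b, 0.44 for Rgs9 and 0.39 for Rarb, but 0.21 for Drd2 and 0.12 for Pde10a. Pde10a and Rarb were the 1 pair below 0, at -0.22. Drd2 correlated best with Rgs9, at 0.46. The slide sets were also read apart: within slides 4 and 5 (8 arrays) the median r was 0.67, and within slides 1 to 3 (10 arrays) 0.17. The median Spearman rho differed less, at 0.29 within slides 4 and 5 and 0.21 within slides 1 to 3. Rarb had a mean r of 0.69 with the other genes within slides 4 and 5 and of -0.03 within slides 1 to 3, while Pde10a had -0.02 and 0.32.

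Co-variation was highest among the stress with exercise arrays. The median r was 0.67 within stress with exercise, 0.31 within stress and 0.17 within control (n = 6 arrays each), and the median rho was 0.43 within stress with exercise, 0.26 within stress and 0.09 within control. Without stress with exercise array 2, the array with the lowest mean deviation, the median over the remaining 17 arrays was 0.20. Leaving out any other array gave 0.34 to 0.47. Drd1 and Adora2a kept an r of 0.79 within slides 1 to 3 and 0.91 within slides 4 and 5. Drd1 and Ppp1r1b had 0.59 and 0.93 in the same sets of slides. Within stress with exercise, stress and control, Drd1 and Adora2a had 0.98, 0.72 and 0.34, and Drd1 and Ppp1r1b 0.95, 0.50 and 0.74.

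**Figure D3:**
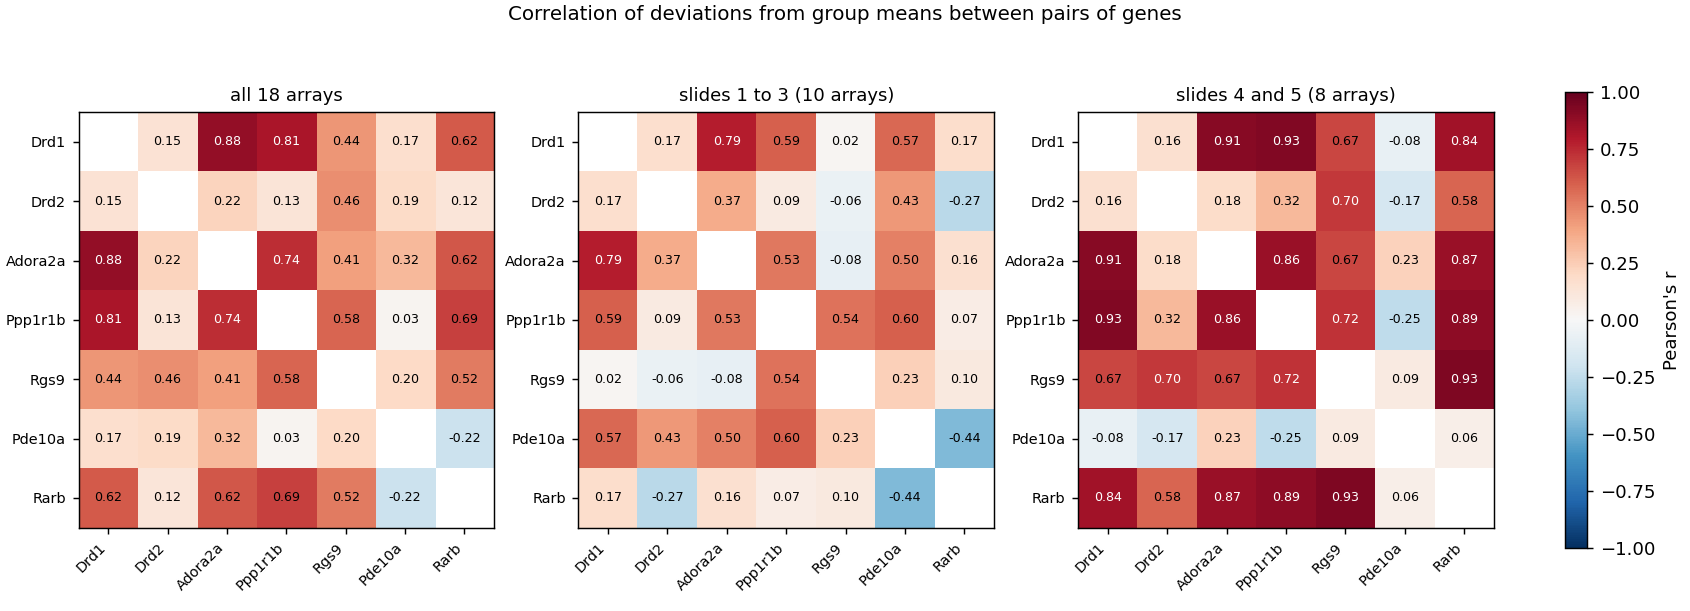
Pearson correlation (colour, and number in each cell) between pairs of the 7 genes, on deviations from group means, over all 18 arrays, within slides 1 to 3 and within slides 4 and 5. Drd1, Adora2a and Ppp1r1b keep an r of at least 0.53 with each other in each panel, whereas the pairs of Rarb and Rgs9 with other genes are mostly higher in slides 4 and 5.

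The mean of the 8 genes, each scaled to unit SD of its deviations, gave 1 value per array. It was highest in stress with exercise array 1 (1.14), stress array 1 (0.94) and stress with exercise arrays 4 (0.86) and 3 (0.60), and lowest in stress with exercise array 2 (-1.35). Control arrays lay between -0.29 and 0.20. High arrays lay on slides 3, 4 and 5, and slide 4 held both the highest and the lowest array.

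Among 12973 other genes, whose median r with this mean was -0.02, the 10 with the highest r over 18 arrays included Akap5 (0.92), LOC100912227 (0.89), Chrm4 (0.87), Arpp21 (0.87), Bcl11b (0.85), Rprml (0.84), Kcnh3 (0.84), Itpka (0.83) and Shisa8 (0.81). Akap5 encodes an anchoring protein of protein kinase A, Chrm4 the M4 muscarinic receptor, and Arpp21 a cAMP-regulated phosphoprotein. Bcl11b encodes a zinc finger transcription factor, Kcnh3 a potassium channel, Itpka a kinase of inositol trisphosphate and Shisa8 a partner of AMPA receptors. Within slides 1 to 3 their r lay between 0.55 (Rprml) and 0.91 (LOC100912227), and within slides 4 and 5 between 0.90 (Itpka) and 0.97 (Rprml). Of the 10, 8 were also among the highest 10 when Gpr6 was left out of the mean. On the list of other striatal genes stand Chrm4, Arpp21 and Bcl11b, of which only Chrm4 was called, against control. It averaged -2.33 ± 0.38 in stress with exercise, -2.53 ± 0.29 in stress and -2.84 ± 0.13 in control (SD, n = 6 each).

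The list of other striatal projection neuron genes held 31 tested genes of 40. Against control, 7 rose and 2 fell in stress with exercise, beside 15.3% and 11.2% of all genes, with a median difference of 0.03. The genes that rose were Scn4b, Chrm4, Rasd2, Adcy5, Rasgrp2, Arpp19 and Ppp1r16b. With the slide set in the fit the differences of Rasd2, Rasgrp2 and Arpp19 turned to -0.03, -0.06 and -0.02, and those of Adcy5, Ppp1r16b and Chrm4 were 0.03, 0.07 and 0.32, against 0.22, 0.12 and 0.51 with group only. Scn4b, a sodium channel subunit, was higher by 0.54 ± 0.17 (SE) with a limma adjusted p of 0.0256, and in 6 of 6 arrays it exceeded the control mean. Gnal, the stimulatory G protein subunit that couples to both cAMP-raising receptors, fell by 1.13, to -1.79 ± 0.10 in stress with exercise against -0.65 ± 0.08 in control (limma adjusted p = 0.000876). Gng7, the gamma subunit that pairs with it, averaged -2.63 ± 0.30 in stress with exercise and -1.88 ± 0.12 in control, a difference of -0.75 (limma adjusted p = 0.00906). With the slide set in the fit the difference was 0.02 for Gnal, 0.23 for Gng7 and 0.24 for Scn4b, and none of the 3 was called.

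In stress with exercise against stress 1 gene of that list rose and 1 fell, beside 1.62% and 1.76% of all genes. Adcy5, the main adenylyl cyclase of the striatum, averaged -0.42 ± 0.14 in stress with exercise and -0.70 ± 0.11 in stress (difference 0.28 ± 0.06 SE, limma adjusted p = 0.0403). Gnal averaged -1.79 ± 0.10 in stress with exercise and -1.03 ± 0.60 in stress (difference -0.75, limma adjusted p = 0.0448). Adding the slide set gave 0.15 and 0.02, and neither was called. In stress against control none was called in limma, and Pdyn, the prodynorphin gene, and Ikzf1, a transcription factor gene, had the smallest p, with differences of 0.16 and -0.39 (limma adjusted p = 0.354 and 0.402).

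The list also held neuropeptide precursor genes. Penk, Tac1 and Pdyn, which encode enkephalin, tachykinin and dynorphin precursors and are also made in the hypothalamus, had r of 0.39, -0.04 and 0.12 with the mean of the 8 genes. The list mean had an r of 0.60 with the mean of the 8 genes over 18 arrays, 0.85 within slides 4 and 5 and 0.37 within slides 1 to 3.

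The 43 genes of dopamine and cAMP signalling were all tested. Against control, 3 rose and 4 fell in stress with exercise, beside 15.3% and 11.2% of all genes. In stress with exercise against stress none was called in limma, beside 1.62% of all genes called higher and 1.76% lower. Pde2a, a phosphodiesterase, was higher by 0.20 ± 0.05 (SE, limma adjusted p = 0.00373), with 2.05 ± 0.11 in stress with exercise and 1.85 ± 0.03 in control. The D5 receptor gene Drd5 averaged -5.41 ± 0.16 in stress with exercise and -4.94 ± 0.09 in control (limma adjusted p = 0.0127), and the inhibitory G protein gene Gnai1 -5.50 ± 0.13 and -5.21 ± 0.11 (limma adjusted p = 0.0138). With the slide set the differences of Pde2a, Drd5 and Gnai1 were 0.15, 0.17 and -0.06. The dopamine transporter gene Slc6a3 had the smallest p in stress with exercise against stress, at -4.64 ± 0.50 in stress with exercise and -6.42 ± 0.65 in stress (limma adjusted p = 0.0527), a difference of 1.77 that was 1.40 with the slide set, and Ppp1ca, a catalytic subunit of the phosphatase that DARPP-32 inhibits, differed by 0.10 (limma adjusted p = 0.0961). In stress against control Ppp1cb and Ppp1ca differed by -0.16 and 0.09 (limma adjusted p = 0.368 and 0.374). The list mean had an r of -0.01 with the mean of the 8 genes, and Pde2a had 0.69.

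Another list, with 12 tested genes, held other R7 regulators of G protein signalling, the family of Rgs9, and their partners. It also held Rgs genes of other families. Only Rgs14, a gene of another family, was called, higher by 0.18 ± 0.05 (SE) in stress with exercise against control (limma adjusted p = 0.0192). In that comparison 15.3% of all genes were called higher and 11.2% lower, and in stress with exercise against stress 1.62% and 1.76%. With the slide set the difference of Rgs14 was 0.18, and it was not called. Rgs6 and Rgs7 had the smallest p in stress with exercise against stress, with differences of 0.12 and 0.19 (limma adjusted p = 0.128 and 0.144), and 0.10 and 0.09 with the slide set. In stress against control these were Rgs6 and Rgs9bp, with -0.12 and -0.45 (limma adjusted p = 0.371 and 0.401), and -0.13 and -0.18 with the slide set. The retinoic acid list held 14 tested genes. Rxrb, which encodes a dimer partner of the RARB protein, averaged -1.12 ± 0.07 in stress with exercise, -1.35 ± 0.13 in stress and -1.43 ± 0.03 in control. Rxrb was the only gene of the list called. It was higher in stress with exercise against stress (limma adjusted p = 0.0406) and against control (limma adjusted p = 0.000863). Over all genes, 1.62% and 15.3% were called higher in these comparisons. The difference of Rxrb was 0.06 in both once the slide set was in the fit. In stress against control Crabp1 and Rarg differed by 0.23 and 0.14 (limma adjusted p = 0.402 and 0.410).

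The adenosine and Gpr6-like list held 9 tested genes and none was called in limma. Over all genes, 1.62% were called higher and 1.76% lower in stress with exercise against stress. Against control these shares were 15.3% and 11.2%, and in stress against control 0.0% were called. Adk, the adenosine kinase gene, and Slc29a1, a nucleoside transporter gene, differed by 0.14 and 0.24 in stress with exercise against stress (limma adjusted p = 0.117 and 0.173), and by 0.06 and 0.00 with the slide set. Gpr3, the nearest relative of Gpr6 on the list, averaged -1.17 ± 0.08 in stress with exercise and -0.96 ± 0.09 in control, a difference of -0.21 (limma adjusted p = 0.0571). In that comparison Adk differed by 0.12 (limma adjusted p = 0.106). The slide-set difference of Gpr3 had the other sign, 0.13, and that of Adk was 0.00. In stress against control Gpr3 and Slc29a1 differed by -0.13 and -0.16 (limma adjusted p = 0.513 and 0.556).

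Markers of other cells were read on the same arrays. All 9 tested markers of cholinergic neurons of the basal forebrain and striatum (of 10 on the list, 9 on the array) rose in stress with exercise against control, where 15.3% of all genes did. Their median difference was 0.70, and 0.62 with the slide set. In stress with exercise against stress the median was 0.10 and in stress against control 0.55, with 0 called in either. Over all genes, 1.62% were called higher and 1.76% lower in the first of these and 0.0% in the second. Their mean level ran from -2.73 to -1.77 in stress with exercise, from -2.71 to -2.08 in stress and from -2.93 to -2.69 in control, and each gene was tested. Its r with the mean of the 8 genes was 0.71 over 18 arrays, 0.82 within slides 4 and 5 and 0.43 within slides 1 to 3. Ngfr, a nerve growth factor receptor of these neurons, averaged -2.51 ± 0.51 in stress with exercise and -3.33 ± 0.25 in control (limma adjusted p = 0.00684), and with the slide set its difference was 0.70 (limma adjusted p = 0.604). In the slide-set fit 7 probes of all 31293 were called against control. The part of cholinergic neurons in the members' differences was not tested.

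Among the other marker lists, oligodendrocyte markers had an r of 0.52 with the mean of the 8 genes, and 3 of 10 rose in stress with exercise against control, where 15.3% of all genes did. Their mean level ran from 2.04 to 2.23 in stress with exercise, from 1.99 to 2.10 in stress and from 1.90 to 2.07 in control. Mag, a myelin glycoprotein gene, averaged 3.43 ± 0.08 in stress with exercise and 3.07 ± 0.07 in control (limma adjusted p = 0.00097), and differed by 0.09 with the slide set. Striatal interneuron markers had an r of -0.16, with a mean level from -1.31 to -0.89 in stress with exercise, from -1.28 to -1.08 in stress and from -1.32 to -1.18 in control. Hypothalamic neuron markers had an r of -0.28 and thalamic ones of -0.09. Markers of septal and pallidal neurons had 0.29, and those of cortex and hippocampus -0.02, with the glutamate transporter gene Slc17a7 at background on every array. For pituitary markers the r was -0.02. Of these, Prl was at background on every array, while Cga averaged -1.66 ± 4.17 in stress with exercise and -0.89 ± 5.71 in stress (SD, n = 6 each). The 5 remaining lists (amygdala, astrocytes, microglia, vessel cells, and choroid plexus with ependyma) had an r between -0.06 and 0.28. The part of any of these cells in the members' levels was not tested.

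**Figure D4:**
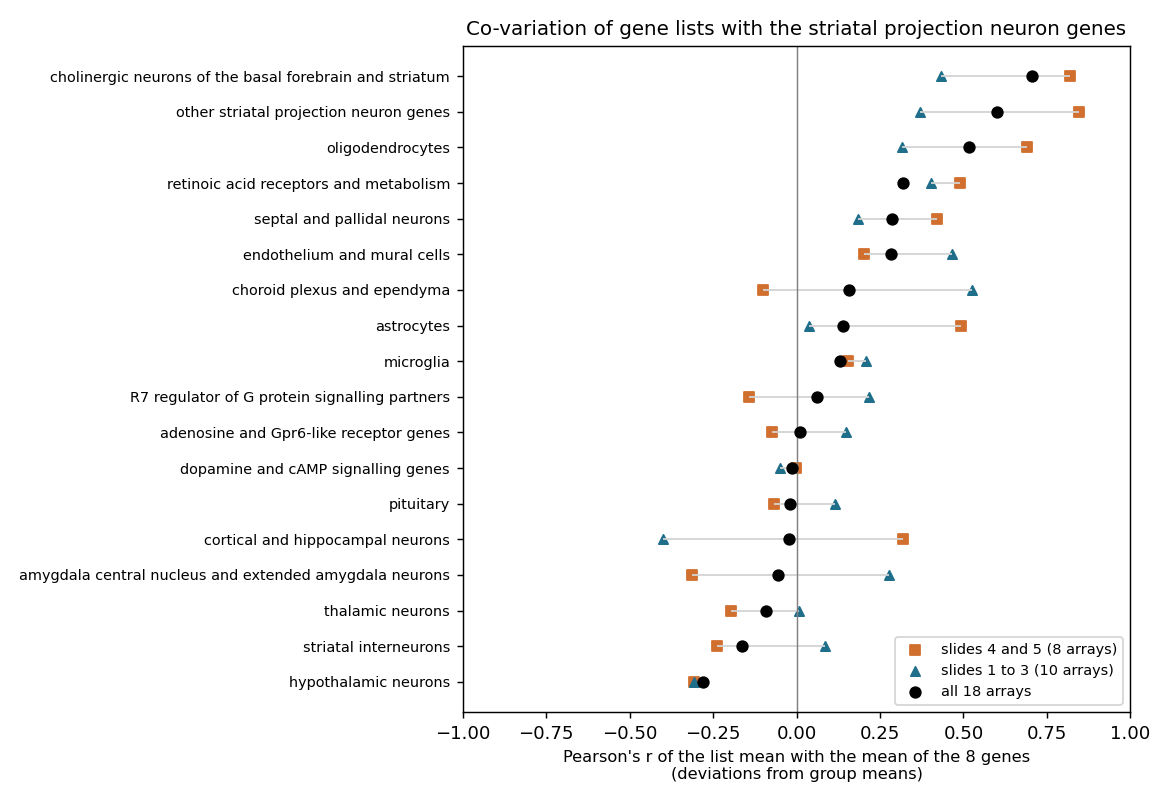
Pearson correlation (horizontal axis) of the mean of each of 18 gene lists with the mean of the 8 striatal projection neuron genes, on deviations from group means, over all 18 arrays (circles), within slides 1 to 3 (triangles) and within slides 4 and 5 (squares). Cholinergic neuron markers (0.71) and other striatal projection neuron genes (0.60) lie farthest to the right over all 18 arrays, and hypothalamic neuron markers (-0.28) farthest to the left, while within slides 1 to 3 the choroid plexus list (0.53) and the cortical list (-0.40) are the extremes.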

How the data were processed

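RNA of 18 hypothalami was hybridised to 1-colour Agilent rat arrays. Per the file headers, the deposited intensity is the processed signal of Agilent Feature Extraction 12.1.0.3 (version 9.1 per the submitters' processing notes), already corrected for background. The series matrix deposited by the authors holds the same intensity times 1 constant per array. Per the labels, a single person did all dissections, and the amount of RNA is given with different values in 2 protocols.

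Levels were computed as log2 of the intensity minus the 75th percentile of the array over all spots that are not controls, 1963 to 2422 in intensity. Spots of 1 probe were averaged without outlier spots (297 to 580 per array). A probe was tested if well above background on at least 5 of 6 arrays of at least 1 group, which kept 31293 of 45598 probes. Names came from transcript accessions in a RefSeq table (GRCr8): 21220 probes matched 1 symbol and 24378 none. The brightest tested probe stood for a gene (13051 genes). Coordinates of build GRCr8 were used for the promoter windows only.

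limma 3.58.1 (R 4.3.3; lmFit and eBayes) was fitted on the tested probes and 18 arrays with group as the term, and checked on simulated data. Probes were called at a two-sided Benjamini-Hochberg adjusted p under 0.05. Differences and SE come from that fit. It called 365 probes higher and 801 lower in stress with exercise against stress, and 3434 higher and 4719 lower against control. Quantile normalization gave 4926 and 3979 against control. With no scaling the counts were 33 and 1341 against stress and 722 and 4449 against control. Python 3.11.15 was used for correlations.

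The members, the 5 pathway lists and the 13 marker lists were chosen with earlier results of these data known. Named list genes are up to 3 called genes with the largest difference per list and comparison, or the 2 with the smallest p; 1 gene per marker list, the genes dim on all arrays, and the 10 genes most like the members' mean were named likewise. Marker genes were named in part, and a few named genes are not reported here. Penk, Tac1, Rasd2, Rasgrp2, Arpp19, Ppp1r16b and the correlations of Pdyn and Pde2a were added after their values were seen. The planned normexp correction used the median spot signal in place of the mean, which was not used here. The number of arrays limits the precision.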

Additional observations from a re-analysis of the deposited data

Results flagged for a closer look

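Each probe of the 8 genes was examined in each group for an array far from the other 5, which gave 30 sets of 6 arrays, and chance alone marks about 1 in 20. Rgs9 stood at -1.37 in stress array 3, against -1.13 for the next lowest array of that group, a gap of 0.671 of the whole range. Pde10a stood at -1.02 in control array 1, against -1.21 for the next highest control, a gap of 0.775 of the range. Both exceed Dixon's 95% critical value for 6 arrays.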

How the results depend on the processing

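The main counts of probes called were 1166 for stress with exercise against stress, 8153 for stress with exercise against control and 0 for stress against control, and those of members 1, 5 and 0. For stress with exercise against stress the probes numbered 2 with no filter on dim probes, 0 with slide as a random block, 5 with the slide set as a covariate, 3 within slides 4 and 5 and 3110 with scan day as a block, and members numbered 0 under the first 4 of these. For stress with exercise against control they numbered 5171 with no scaling (3 members), 1757 with slide as a random block (0 members) and 7 with the slide set (0 members). For stress against control they numbered 467 with scan day, 2 with quantile normalization and 1 with the slide-set covariate, with 0 members in each. Leaving out 1 array gave 1 to 4633 probes and 0 to 2 members for stress with exercise against stress, 6979 to 8558 probes and 3 to 5 members against control, and 0 of either for stress against control. With the replicate block, the number in the titles as a factor, 2 probes and 0 members were called for stress with exercise against stress, 7105 and 5 against control, and 0 and 0 for stress against control. Same-numbered arrays correlated between -0.245 and 0.187 in their deviations, so the numbers were not taken to pair the rats. The cause of these changes was not tested.

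Quantile normalization, normexp, the series matrix and the 75th percentile over probes (added after the data were seen) left the count of members at 1, 5 and 0. Differences of members under alternatives moved by less than the spread within groups in 625 cases and by more in 4, which were 2 differences on the second Drd1 probe and those of Drd2 (0.18) and Rarb (0.31) against control with the slide set. The 625 include cases that could not move. Leaving out an array of a group outside the comparison, or changing the filter on dim probes, leaves a difference unchanged. The median r of the 21 pairs lay between 0.17 (within slides 1 to 3) and 0.67 (within slides 4 and 5) and was 0.31 over 28 pairs with Gpr6. Gpr6 and the second Rarb probe were too dim to be tested. Even so, the 625 cases count the second Rarb probe, with 0.19 for stress with exercise minus stress.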
